A study of Mus musculus with 6 samples.

Results

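The genes described here are 10 mouse orthologues of human Alzheimer risk genes that microglia express: Bin1, Picalm, Sorl1, Cd2ap, Rin3, Abi3, Ptk2b, Cd33, Abca7 and Grn. They are a fixed list of 10 of the 31053 features counted, and all 10 were detected in every library. Hippocampal nuclei of mice aged 9.5 months were sorted on the myeloid factor PU.1 and profiled by droplet single-nucleus RNA sequencing in 6 libraries. Each genotype had 1 library, made from 3 pooled mice. The genotypes were the human APOE4 allele without mutant tau in E4/TREM2+ and E4/TREM2-, the tau mutation P301S on an Apoe-deficient background in P301S/EKO/TREM2+ and in P301S/EKO/TREM2-, and P301S tau together with APOE4 in P301S/E4/TREM2+ and P301S/E4/TREM2-. TREM2+ and TREM2- mark whether Trem2 was present or deleted. Every library carried APOE4 or lacked Apoe, so no genotype here is a wild type. The labels name neither the tau line nor the promoter that drives it.

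Many common risk variants for late-onset Alzheimer disease lie in or near genes that microglia use for endocytosis, lipid handling, lysosomal function and immune receptor signalling. Microglia that meet tau pathology or amyloid lower a homeostatic set of transcripts, such as P2ry12 and Tmem119, and raise an activated set, such as Spp1, Lpl, Itgax and Gpnmb. TREM2, a lipid-sensing receptor, and APOE, a lipoprotein that microglia secrete, are both known to be needed for much of that activated set.

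After nuclei with under 200 detected genes or over 5% mitochondrial UMIs (unique molecular identifiers, 1 per captured transcript) were left out, 31738 of 33335 nuclei remained, with 3172124 to 8376816 UMIs per library and a median of 569 to 915 UMIs per nucleus. Microglia-like clusters held 93.7% of these nuclei, 89.7% to 95.8% by library. Border-associated macrophage-like nuclei were 4.24% and neuron-like nuclei 0.394%, and pairs of libraries shared 4 to 11 nucleus barcodes. Trem2 was 348, 469 and 580 CPM (UMIs scaled to an equal total per library) in the TREM2- libraries of E4, P301S/EKO and P301S/E4 and 917, 976 and 1114 CPM in the TREM2+ libraries, so Trem2 transcripts remained in every library labelled TREM2-. Apoe was 14.2 and 9.14 CPM in the P301S/EKO libraries and 187 to 1184 CPM in the others. Neuron marker transcripts summed to 2236 CPM in E4/TREM2-, 951 CPM in E4/TREM2+ and 257 to 717 CPM in the P301S libraries.

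The promoters of Sorl1 and Picalm are shown because these genes moved in opposite directions with tau and their promoters lie directly upstream of the annotated gene. Both are the 250 bases before the start site in RefSeq (GRCm38.p6), 5′ to 3′ on the gene's strand, with capitals for matches to the searched motifs. The Sorl1 window is chr9:42124298-42124547 on the minus strand and the Picalm window chr7:90129963-90130212 on the plus strand.
Sorl1: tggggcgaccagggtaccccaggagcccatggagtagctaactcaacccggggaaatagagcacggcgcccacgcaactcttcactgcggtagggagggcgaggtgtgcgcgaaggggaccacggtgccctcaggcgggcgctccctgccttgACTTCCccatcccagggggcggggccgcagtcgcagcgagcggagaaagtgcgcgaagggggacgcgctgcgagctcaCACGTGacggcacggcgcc
Picalm: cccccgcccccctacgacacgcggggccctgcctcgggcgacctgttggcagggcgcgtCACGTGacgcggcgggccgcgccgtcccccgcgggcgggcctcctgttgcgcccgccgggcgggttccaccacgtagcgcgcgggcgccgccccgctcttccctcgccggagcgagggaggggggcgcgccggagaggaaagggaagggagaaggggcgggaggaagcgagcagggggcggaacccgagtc

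The searched motifs were the PU.1 core GAGGAAGT, the shorter ETS core GGAAGT that lies within it, the E-box CACGTG and the AP-1 site TGANTCA, on both strands. They occur in 2.44%, 19.7%, 6.02% and 6.75% of 32851 RefSeq promoter windows of this length. The Sorl1 window held CACGTG 19 bases before the start and GGAAGT on the opposite strand, read as ACTTCC, 97 bases before it. The Picalm window held CACGTG 191 bases before the start. Windows were found for 7 of the 10 genes, not for Bin1, Abi3 or Ptk2b. Of the rest, Cd33 had a GGAAGT and Grn, Abca7, Rin3 and Cd2ap had none of the 4 motifs. These matches describe the letters only.

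Levels are CPM over all passing nuclei, given for E4, then P301S/EKO, then P301S/E4, and within each of these backgrounds for TREM2+ before TREM2-. They compare libraries within a gene, and 95% intervals cover counting error only. A lower sum can mean fewer nuclei of a type or fewer transcripts in each, which a sum cannot tell apart.

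**Figure D1:**
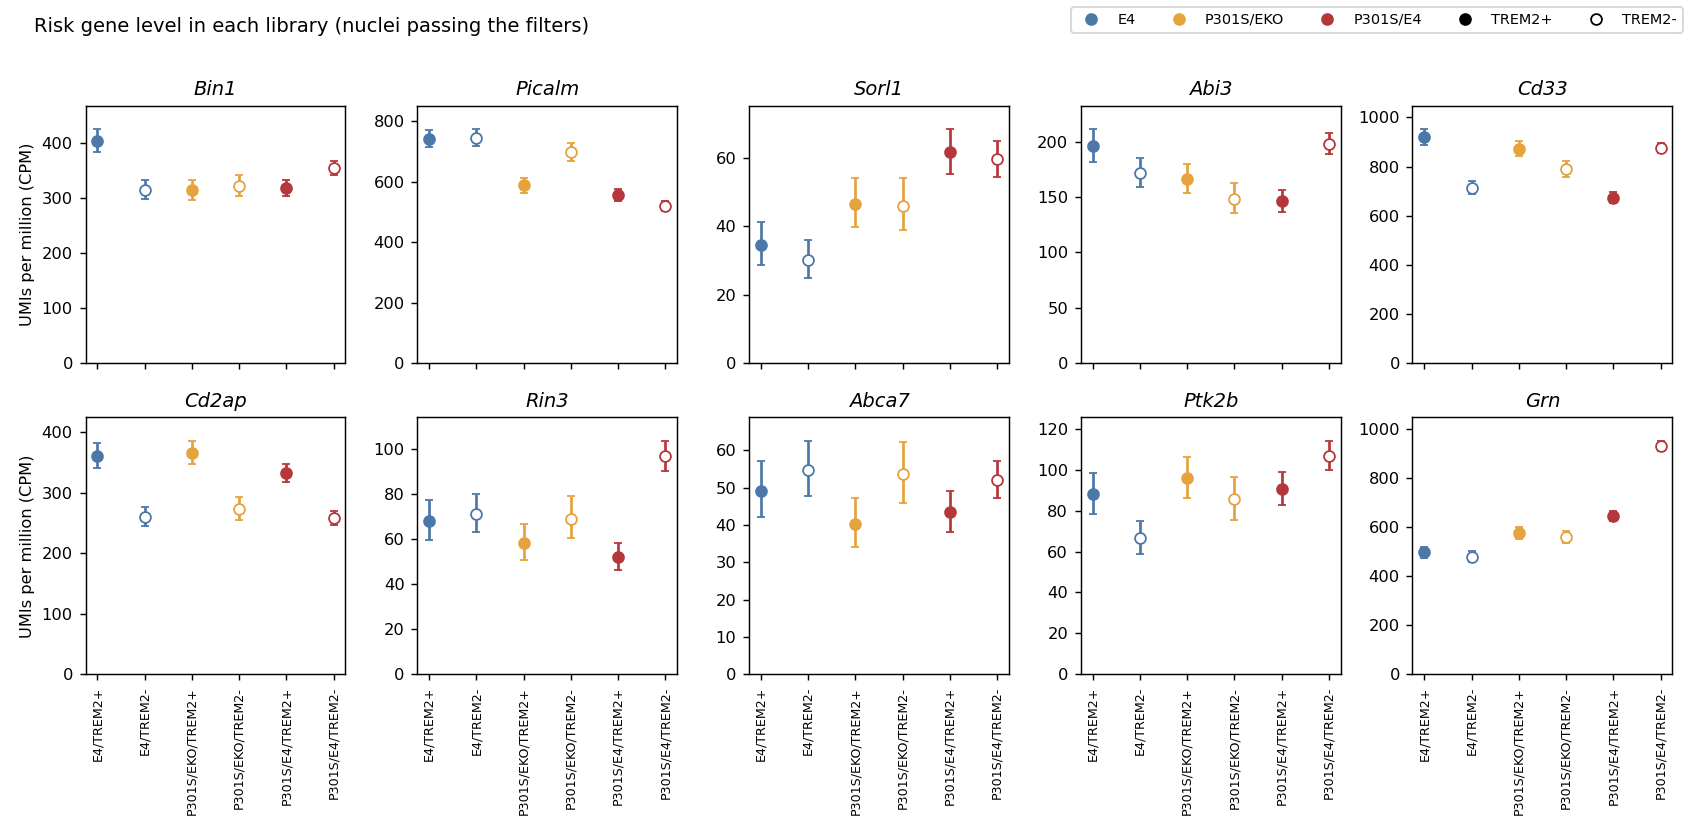
Level of each risk gene in CPM (vertical axis from 0) in each of the 6 libraries (horizontal axis); bars are 95% counting intervals, filled points TREM2+, open points TREM2-. Sorl1 was 59.6 and 61.6 CPM in the P301S/E4 libraries and 30.1 and 34.6 CPM in the E4 libraries, and Grn reached 932 CPM in P301S/E4/TREM2- against 481 to 647 CPM elsewhere.

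Of the genes of endocytosis and endosomal sorting, Sorl1 varied most between libraries. Sorl1 (ENSMUSG00000049313, GRCm38 9:41964720-42124297) encodes the sorting receptor SORLA, which returns APP from endosomes to the trans-Golgi network. It was 34.6, 30.1, 46.6, 46.0, 61.6 and 59.6 CPM, or 123, 121, 174, 146, 356 and 499 UMIs. The pairs that share a background lay within each other's counting intervals, and the order was E4, then P301S/EKO, then P301S/E4 for either TREM2 genotype. Picalm (ENSMUSG00000039361, 7:90130213-90213465), a clathrin assembly protein, ran the other way at 741, 745, 588, 697, 555 and 519 CPM. Its E4 libraries were the highest and its P301S/E4 libraries the lowest.

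Cd2ap (ENSMUSG00000061665, 17:42792951-42876665), an adaptor that links membrane proteins to actin, was 361, 260, 366, 274, 333 and 258 CPM. The 3 TREM2+ libraries, at 333 CPM or more, all lay above the 3 TREM2- libraries, at 274 CPM or less. Rin3 (ENSMUSG00000044456, 12:102283048-102390855), a guanine exchange factor for Rab5 small GTPases, was 68.0, 71.2, 58.3, 69.0, 51.9 and 96.6 CPM. P301S/E4/TREM2+ was the lowest library for Rin3 and P301S/E4/TREM2- the highest, and the other 4 lay between 58.3 and 71.2 CPM. Bin1 (ENSMUSG00000024381), a membrane-curving amphiphysin, was 402, 314, 314, 322, 318 and 354 CPM, with E4/TREM2+ above the rest.

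Of the cytoskeleton and signalling genes, Abi3 (ENSMUSG00000018381, 11:95830074-95842476), a part of the WAVE complex that drives actin branching, was 196, 172, 167, 149, 147 and 198 CPM. Abi3 overlaps Zfp652 (334 to 488 CPM) and Gngt2 (38.1 to 62.1 CPM) on the opposite strand, and strand use in counting is not given in the sources used here, so its UMIs cannot be fully told apart from theirs. Ptk2b (ENSMUSG00000059456, 14:66153257-66281052), the calcium-responsive kinase PYK2, was 88.0, 66.5, 95.8, 85.4, 90.5 and 107 CPM. Cd33 (ENSMUSG00000004609, 7:43524216-43544428), a sialic acid-binding receptor, was 919, 712, 873, 789, 674 and 876 CPM. For Abi3, Ptk2b and Cd33 no background stood apart in both of its libraries.

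Abca7 (ENSMUSG00000035722, 10:79996494-80015572), an ABC transporter that moves phospholipid, was 49.2, 54.8, 40.1, 53.6, 43.4 and 51.9 CPM. Its highest level was 1.37 times its lowest. Grn (ENSMUSG00000034708, 11:102430315-102437048) encodes progranulin, a secreted precursor of lysosomal granulins. It was 498, 481, 576, 560, 647 and 932 CPM, and P301S/E4/TREM2- held 7808 of its UMIs. Grn overlaps Fam171a2 (11.5 to 19.9 CPM) on the opposite strand. As with Sorl1, both P301S/E4 libraries were the highest and both E4 libraries the lowest.

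A share of nuclei with a UMI can depend on depth, so each nucleus with at least 500 UMIs was also thinned to 500. Grn was found in 26.4%, 31.0%, 40.3%, 27.9%, 41.0% and 59.2% of passing nuclei, and in 21.3%, 21.6%, 24.9%, 23.7%, 27.2% and 37.7% of thinned nuclei. Sorl1 was found in 2.2%, 2.1%, 4.1%, 2.6%, 5.3% and 6.5%, and after thinning in 1.6%, 1.1%, 2.1%, 1.9%, 3.0% and 2.6%. Picalm was found in 36.4%, 42.3%, 39.1%, 32.8%, 35.8% and 39.8%, and after thinning in 30.9%, 30.8%, 24.2%, 28.3%, 23.2% and 22.2%. Thinning kept 3600 of 5088 nuclei in E4/TREM2+, 4411 of 4828 in E4/TREM2- and 3223 of 5050 in P301S/EKO/TREM2-. In the other libraries it kept all passing nuclei. At equal depth, among the nuclei kept, the P301S/E4 libraries were thus the highest for Grn and Sorl1 and the lowest for Picalm. In the 125 neuron-like nuclei, which were deeper (median 3016 UMIs against 721 in microglia-like nuclei), Cd33 was found in 10 nuclei, Grn in 20 and Rin3 in 1, against 45.7%, 38.8% and 5.97% of microglia-like nuclei. Sorl1 was instead found in more neuron-like nuclei, 27.2% against 3.76%, at 137 against 46.4 CPM. Neurons are known to express it.

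The tau comparison, P301S/E4 minus E4 over both TREM2 genotypes, asked what mutant tau does to these genes in mice with APOE4. Sorl1 and Grn rose and Picalm fell, and the other 7 genes were not called. The test was edgeR's quasi-likelihood test on library sums with background and TREM2 genotype as terms. Calls were made at 0.05 after Benjamini-Hochberg adjustment over all 12515 genes tested, of which 17.0% were called, 7.8% higher and 9.24% lower. The median log2 fold change was -0.11 over the 10 genes and -0.0015 over all genes tested. Sorl1 rose by 0.86 on the log2 scale (SE 0.16, adjusted p = 0.0036 by edgeR). Its log2 ratio was 0.83 (counting interval 0.53 to 1.14) between the TREM2+ libraries and 0.98 (0.69 to 1.28) between the TREM2- libraries. Of 14 neuron markers tested in the same contrast, 11 fell, and their part in the result was not tested. Among microglia-like nuclei alone the log2 fold change of Sorl1 was 1.11.

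Grn rose by 0.63 (SE 0.14, adjusted p = 0.011 by edgeR), with log2 ratios of 0.38 (0.30 to 0.46) with Trem2 and 0.96 (0.88 to 1.03) without. Picalm fell by 0.51 (SE 0.13, adjusted p = 0.020 by edgeR), with log2 ratios of -0.42 (-0.49 to -0.34) and -0.52 (-0.59 to -0.46). Ptk2b was at 0.32 on the log2 scale (SE 0.16, adjusted p = 0.21), and Bin1, Abi3, Cd33, Cd2ap, Rin3 and Abca7 lay between -0.17 and 0.0015. For Cd33, Abi3, Bin1 and Rin3 the pairs pointed in opposite directions. Their log2 ratios were -0.45, -0.42, -0.34 and -0.39 between the TREM2+ libraries and 0.30, 0.20, 0.17 and 0.44 between the TREM2- libraries. Among microglia-like nuclei the ratios between the TREM2- libraries were 0.21 for Cd33 and 0.40 for Rin3. For Abi3 and Bin1 they were 0.09 (-0.04 to 0.23) and 0.10 (-0.003 to 0.20), with intervals that reach 0.

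The tau calls rest on few libraries. Without E4/TREM2-, which leaves 1 residual degree of freedom and a single E4 library assumed to vary like the other groups, none of the 3 was called at log2 fold changes of 0.81 (Sorl1), 0.50 (Grn) and -0.52 (Picalm). Picalm was also not called without E4/TREM2+, or at -0.35 without P301S/E4/TREM2-. Without P301S/E4/TREM2- Cd33 fell by 0.38, and without P301S/E4/TREM2+ Ptk2b rose by 0.56, calls that all 6 libraries together did not give. In microglia-like nuclei alone all 3 genes kept their calls, at 1.11, 0.58 and -0.61.

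**Figure D2:**
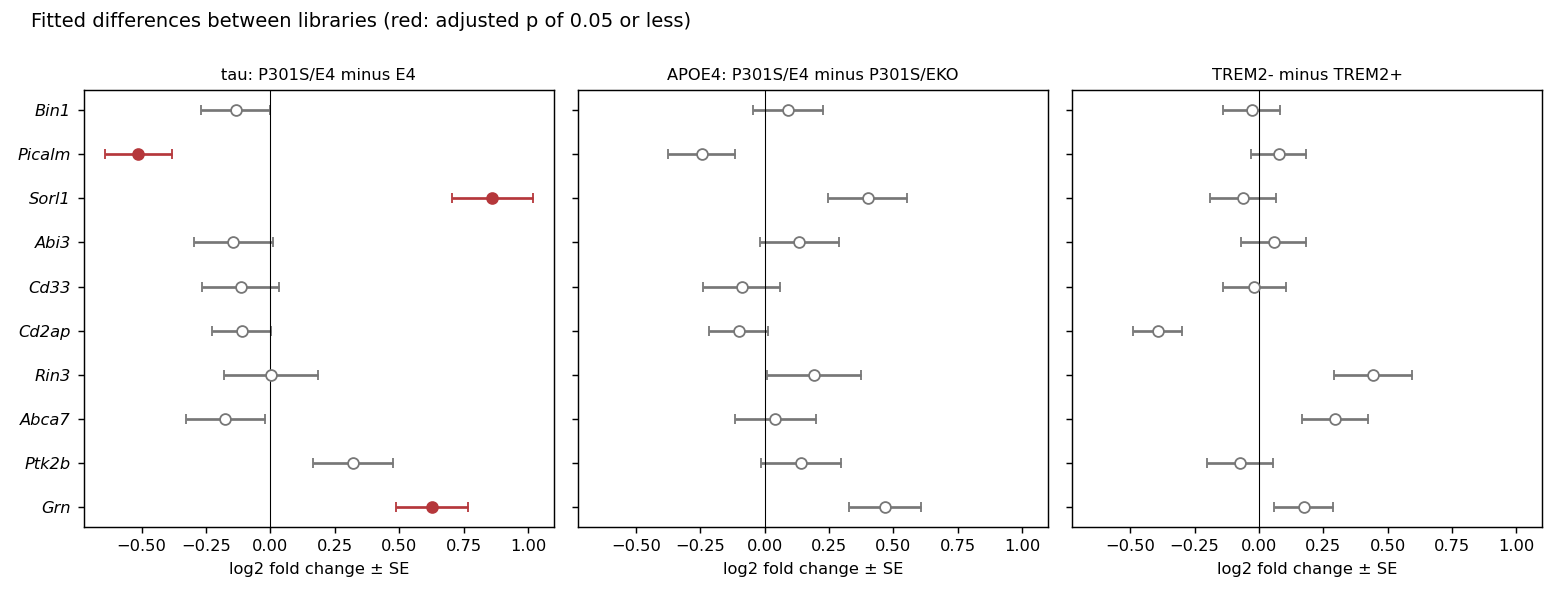
Fitted log2 fold change with its SE (horizontal axis, shared scale) of each risk gene for the tau, APOE4 and TREM2 contrasts; red filled points passed the adjusted p threshold of 0.05. Sorl1, Grn and Picalm passed for tau at 0.86, 0.63 and -0.51, and no gene passed for APOE4 or TREM2 deletion.

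The APOE4 comparison, P301S/E4 minus P301S/EKO, asked what APOE4 adds to mutant tau over having no Apoe. None of the 10 genes was called by edgeR, and 2 had an unadjusted p under 0.05, while 3.67% of all genes tested were called, 1.8% higher and 1.87% lower. The DESeq2 Wald test also called 0 of the 10. The fitted log2 values were 0.47 for Grn (SE 0.14, adjusted p = 0.10), 0.40 for Sorl1 (SE 0.15, adjusted p = 0.19) and -0.24 for Picalm (SE 0.13, adjusted p = 0.36). For Grn the log2 ratio was 0.17 (0.09 to 0.24) between the TREM2+ libraries and 0.73 (0.66 to 0.81) between the TREM2- libraries. For Picalm it was -0.08 and -0.43, and for Sorl1 0.40 and 0.37. The other 7 genes lay between -0.10 and 0.19. Grn was called without P301S/E4/TREM2+, at 0.72. This comparison and that of tau share both P301S/E4 libraries and are not independent of each other.

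TREM2 deletion, TREM2- minus TREM2+ over the 3 backgrounds, called none of the 10 genes by edgeR, with 3 at an unadjusted p under 0.05, and 0.112% of all genes tested, 0.032% higher and 0.0799% lower. The DESeq2 Wald test called 0 of the 10 as well. Cd2ap had the smallest p, at -0.39 on the log2 scale (SE 0.094, adjusted p = 0.24). It was lower in 3 of 3 backgrounds, at log2 ratios of -0.47 (-0.59 to -0.35) in E4, -0.42 (-0.54 to -0.30) in P301S/EKO and -0.36 (-0.45 to -0.27) in P301S/E4. Cd2ap and Trem2 lie on the same chromosome, 17, and whether sequence linked to the deleted allele differs between these libraries was not tested. Abca7 was higher in 3 of 3 backgrounds and fitted at 0.30 (SE 0.13, adjusted p = 0.77). Rin3 was also higher in 3 of 3 and fitted at 0.44 (SE 0.15, adjusted p = 0.59).

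Rin3 and Grn had their largest ratio of TREM2- over TREM2+ in P301S/E4, and the difference between backgrounds was not tested. Rin3 had a log2 ratio of 0.90 (0.70 to 1.09) in P301S/E4, 0.07 (-0.19 to 0.32) in E4 and 0.24 (-0.03 to 0.52) in P301S/EKO. Grn had 0.53 (0.47 to 0.58) in P301S/E4, -0.05 (-0.14 to 0.04) in E4 and -0.04 (-0.13 to 0.05) in P301S/EKO. In the authors' deposited table of P301S/E4/TREM2+ against P301S/E4/TREM2- nuclei, where a negative value is higher in TREM2-, Rin3 had a log fold change of -1.54 (adjusted p = 3.47e-05) and Grn -0.53 (adjusted p = 3.8e-07). In the same authors' deposited table the other 8 genes had adjusted p-values of 0.702 or above. Those p-values were taken over nuclei of 1 library a side, so they compare these 2 libraries.

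The difference in P301S/E4 was spread over the microglia-like nuclei. In each of the 10 clusters with at least 50 nuclei in both P301S/E4 libraries, Grn and Rin3 were both higher in TREM2-, with a median ratio of 1.48 for Grn and 1.75 for Rin3. Grn was 994 against 649 CPM in cluster 0, led by the homeostatic gene Slc2a5, 1016 against 683 CPM in cluster 2, led by Lpl, and 1008 against 653 CPM in the interferon cluster 4. The gap was smallest in the Gpnmb-led cluster 10, at 694 against 627 CPM. Abi3 was also higher in 10 of 10 clusters and Cd33 in 9 of 10. Every library was also given the same mix of the 7 clusters with at least 50 nuclei in all 6. It left out the Lpl-led cluster 2, the interferon clusters 4 and 13 and the Gpnmb-led cluster 10. The E4 libraries barely filled these. Cluster 2 held 2541 of the 5925 microglia-like nuclei of P301S/E4/TREM2+. In that mix Grn was 499, 511, 578, 570, 628 and 929 CPM, close to its plain levels.

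The same mix left Sorl1 at 29.7, 19.4, 34.6, 37.9, 51.6 and 43.7 CPM and Picalm at 774, 801, 623, 726, 669 and 575 CPM. Sorl1 was higher in P301S/E4 than in E4 in 7 of 8 clusters between the TREM2+ libraries and in 6 of 7 between the TREM2- libraries. The exception in both was cluster 0, at 22 against 31 CPM and 25 against 26 CPM, where the P301S/E4 libraries had only 2 and 6 Sorl1 UMIs. Picalm was lower in P301S/E4 in 7 of 8 and in 7 of 7 clusters. Cd2ap was lower in TREM2- in 7 of 10, 7 of 7 and 8 of 9 clusters in P301S/E4, E4 and P301S/EKO.

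To ask which genes follow the activated state, microglia-like nuclei thinned to 500 UMIs were split within each library by 18 stage 2 transcripts of disease-associated microglia (DAM; among them Spp1, Lpl, Itgax and Gpnmb), into nuclei with at least 3 such UMIs and nuclei with 0. The high side held 36, 52, 285, 138, 1590 and 965 nuclei in the library order above, so the E4 libraries add little. Of the 10 genes, 3 fell and none rose, by edgeR with the library as a block, beside 4.91% of 9410 genes called in either direction, 2.73% higher and 2.18% lower. Cd33 fell by 0.26 (SE 0.077, adjusted p = 0.025), Cd2ap by 0.29 (SE 0.093, adjusted p = 0.045) and Abi3 by 0.34 (SE 0.11, adjusted p = 0.048).

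Abi3 was lower on the activated side in 6 of 6 libraries, but its counting interval left out 0 only in P301S/E4/TREM2- and P301S/EKO/TREM2+. The high side held only 4, 7 and 10 Abi3 UMIs in E4/TREM2+, E4/TREM2- and P301S/EKO/TREM2-. The log2 ratio of Abi3 was -0.34 in P301S/E4/TREM2- (174 against 220 CPM) and -0.16 in P301S/E4/TREM2+ (137 against 153 CPM). Cd2ap was lower in 5 of 6 and Cd33 in 4 of 6. Grn was higher in 5 of 6 libraries and fitted at 0.15 (SE 0.079, adjusted p = 0.37). Picalm was at -0.22 (adjusted p = 0.096), Bin1 at -0.22 (adjusted p = 0.15), Ptk2b at 0.10, and Sorl1, Rin3 and Abca7 between -0.10 and -0.03. Many settings ended these calls while the 3 fitted values stayed below 0. None of the 10 was called by the DESeq2 Wald test, with at least 5 UMIs on the high side, over all passing nuclei, from thinned sums or without the ribosomal cluster 9 and the Gpnmb cluster 10. By the DESeq2 Wald test Abi3 was at -0.34, Cd2ap at -0.26 and Cd33 at -0.19, and from thinned sums they were at -0.31, -0.27 and -0.18. By tertiles of the activated list, or with at least 2 UMIs on the high side, these 3 genes were not called and Grn rose instead, by 0.15 (adjusted p = 0.039) and 0.16 (adjusted p = 0.031) by edgeR. None was called either without P301S/E4/TREM2-, P301S/E4/TREM2+ or P301S/EKO/TREM2+, and 1, Cd33, without P301S/EKO/TREM2-. Without P301S/E4/TREM2- or P301S/E4/TREM2+ the fitted values were -0.38 and -0.45 for Abi3, -0.27 and -0.36 for Cd2ap and -0.24 and -0.20 for Cd33. Without E4/TREM2+ Abi3 was not called, at -0.32.

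**Figure D3:**
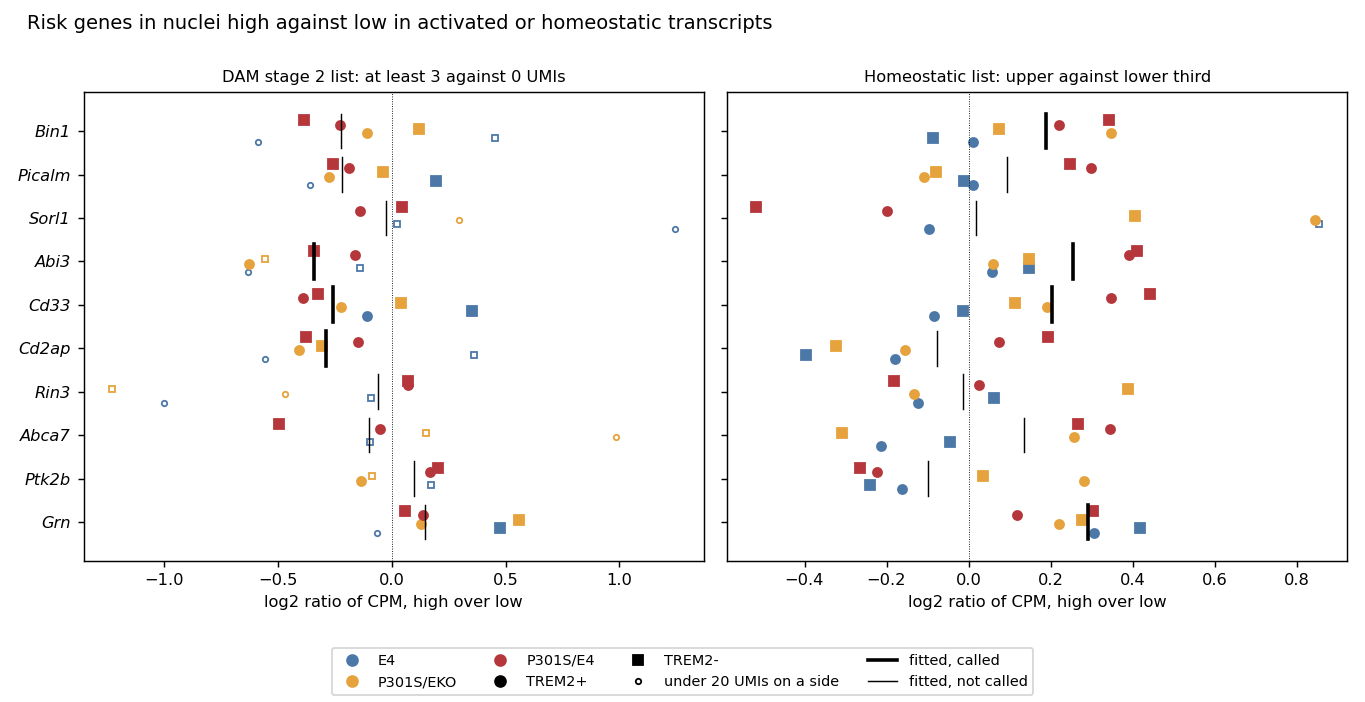
Log2 ratio of CPM between nuclei high and low in activated (left) or homeostatic (right) transcripts for each risk gene; points are the 6 libraries and vertical ticks the fitted value, thick where called. Grn lay above 0 in 6 of 6 libraries for the homeostatic list, and Abi3 lay below 0 in 6 of 6 for the activated list and above 0 in 6 of 6 for the homeostatic list.

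The homeostatic level was read in the same nuclei as the top against the bottom tertile of each library by 22 homeostatic transcripts. Of the 10 genes, 4 rose and none fell, beside 10.4% of 9141 genes called in either direction, 5.63% higher and 4.77% lower. Grn rose by 0.29 (SE 0.051, adjusted p = 0.00025), Abi3 by 0.25 (SE 0.067, adjusted p = 0.013), Cd33 by 0.20 (SE 0.056, adjusted p = 0.018) and Bin1 by 0.19 (SE 0.059, adjusted p = 0.039), all by edgeR. Grn was higher in 6 of 6 libraries, at 569 against 460, 568 against 426, 683 against 586, 629 against 519, 692 against 637 and 1063 against 861 CPM. It was called in 14 of 15 alternatives, the exception being the fit without the library as a block. Abi3 was higher in 6 of 6, Bin1 in 5 of 6 and Cd33 in 4 of 6, and for Cd33 both E4 libraries lay slightly below 0. For Abi3 the counting interval left out 0 only in P301S/E4/TREM2+ (0.39, 0.14 to 0.64) and P301S/E4/TREM2- (0.41, 0.23 to 0.59). Without either P301S/E4 library Abi3, Cd33 and Bin1 were not called, at 0.20 to 0.22, 0.15 to 0.17 and 0.15 to 0.18. Cd33 and Bin1 were also not called without P301S/EKO/TREM2+, at 0.20 and 0.15, nor Bin1 without P301S/EKO/TREM2-, at 0.20. The DESeq2 Wald test did not call Abi3 (0.24, adjusted p = 0.16), Cd33 (0.20, adjusted p = 0.084) or Bin1 (0.19, adjusted p = 0.21). From thinned sums edgeR did not call them at 0.23, 0.19 and 0.17, and without clusters 9 and 10 Bin1 was not called at 0.14.

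Grn went up with the homeostatic transcripts inside a library and up with tau between libraries, where edgeR called 19 of the 22 homeostatic transcripts lower, beside 9.24% of all genes tested. Abi3 and Cd33 had lower levels on the activated side and higher levels on the homeostatic side. Picalm and Sorl1, which moved between libraries, were not called in the main fit of either split. Their homeostatic log2 fold changes were 0.10 (adjusted p = 0.32) and 0.02 (adjusted p = 0.97) by edgeR. Among the alternative settings Picalm was called lower in 1 of 17 for the activated split and higher in 1 of 15 for the homeostatic split. Sorl1 was called in none of them. Mitochondrial and ribosomal protein transcripts were higher on the high side of both splits in 6 of 6 libraries. B cell markers, as a sum, were higher on the homeostatic side in 6 of 6 libraries, at 301.1 to 553 CPM against 172 to 522 CPM. That sum rests on few genes. Over all passing nuclei 3 or 4 of the 6 markers had no UMI in every library but P301S/E4/TREM2-. Igkc, 1 of the 6, was among the leading genes of the microglia-like cluster 1, so the sum is not a measure of B cells. On the activated side border-associated macrophage markers (193 to 751 against 243 to 577 CPM) and monocyte markers (0 to 90.4 against 9.15 to 43.4 CPM) were higher in 5 of 6. Some of these gaps were near 0, as for macrophage markers in E4/TREM2+ (456.6 against 456.0 CPM) and monocyte markers in P301S/EKO/TREM2+ (14.3 against 13.6 CPM). The part of these transcripts in the differences was not tested.

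In the authors' deposited table of nuclei in TERM, their name for a microglial state, against homeostatic nuclei, 4 of the 10 genes had an adjusted p of 0.05 or less. Grn had a log fold change of 0.35 (adjusted p = 1.89e-06) and Ptk2b 0.72 (adjusted p = 0.0088) in that deposited table of the authors, and Cd33 -0.34 (adjusted p = 1.3e-05) and Bin1 -0.41 (adjusted p = 0.0244). These p-values were also taken over nuclei, and the base of the logarithm is not stated. All 4 genes had the same sign in the activated split here, where Cd33 was called and Grn, Ptk2b and Bin1 were not. Picalm, Cd2ap and Abi3, at -0.20, -0.24 and -0.26 in the authors' table, also kept their sign. Rin3, Sorl1 and Abca7, at 0.56, 0.58 and 0.25 there, had the opposite sign here, at -0.06, -0.03 and -0.10. Grn was higher in TERM nuclei there but higher on the homeostatic side here. The authors' table was deposited with these same libraries, so the comparison is not independent.

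Across clusters, which were found without the 10 genes among the variable genes and are described without a test, the Gpnmb-led cluster 10 stood furthest from other microglia-like nuclei of any size when libraries were pooled. This cluster met 13 of the 23 microglia markers, with 12 needed, while the other microglia-like clusters met 20 to 23. Cluster 10 held 758 nuclei, 479 from P301S/E4/TREM2- and 264 from P301S/E4/TREM2+. Bin1 was 182 CPM there against 353 CPM over all microglia-like nuclei, Cd33 505 against 837 CPM, Abi3 129 against 184 CPM, Cd2ap 210 against 312 CPM and Picalm 417 against 633 CPM. Rin3, at 122 against 75.4 CPM, and Ptk2b, at 131 against 93.7 CPM, ran higher. The pooled values also carry differences between libraries. Within both P301S/E4 libraries these 7 genes lay on the same side, as with Bin1 at 146 against 325 CPM in TREM2+ and 197 against 368 CPM in TREM2-, and Rin3 at 61.7 against 53.2 CPM and 147 against 100.1 CPM. Grn was 679 against 688 CPM when pooled, but lower in the cluster within each library, at 627 against 655 CPM in P301S/E4/TREM2+ and 694 against 946 CPM in P301S/E4/TREM2-.

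Picalm was highest in cluster 7, led by the chemokine gene Ccl3, at 849 CPM. It was higher there than in cluster 0 in 5 of 6 libraries, from 699 against 642 CPM in P301S/E4/TREM2- to 1119 against 815 CPM in E4/TREM2-. In P301S/E4/TREM2+ it was 713 against 772 CPM. The authors' deposited marker table lists Picalm for the group they call Inflam, with a log fold change of 0.39 and an adjusted p of 1.07e-08. Sorl1 was 22, 70 and 55 CPM in clusters 0, 4 and 10 of P301S/E4/TREM2+ and 25, 63 and 67 CPM in those of P301S/E4/TREM2-, on 2 and 6 UMIs in cluster 0. In cluster 4 of the P301S/EKO libraries it was 35 and 40 CPM. In border-associated macrophage-like nuclei Abi3 was 77.5 CPM and Bin1 180 CPM, below the microglia-like 184 and 353 CPM, while Grn was 765 CPM.

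**Figure D4:**
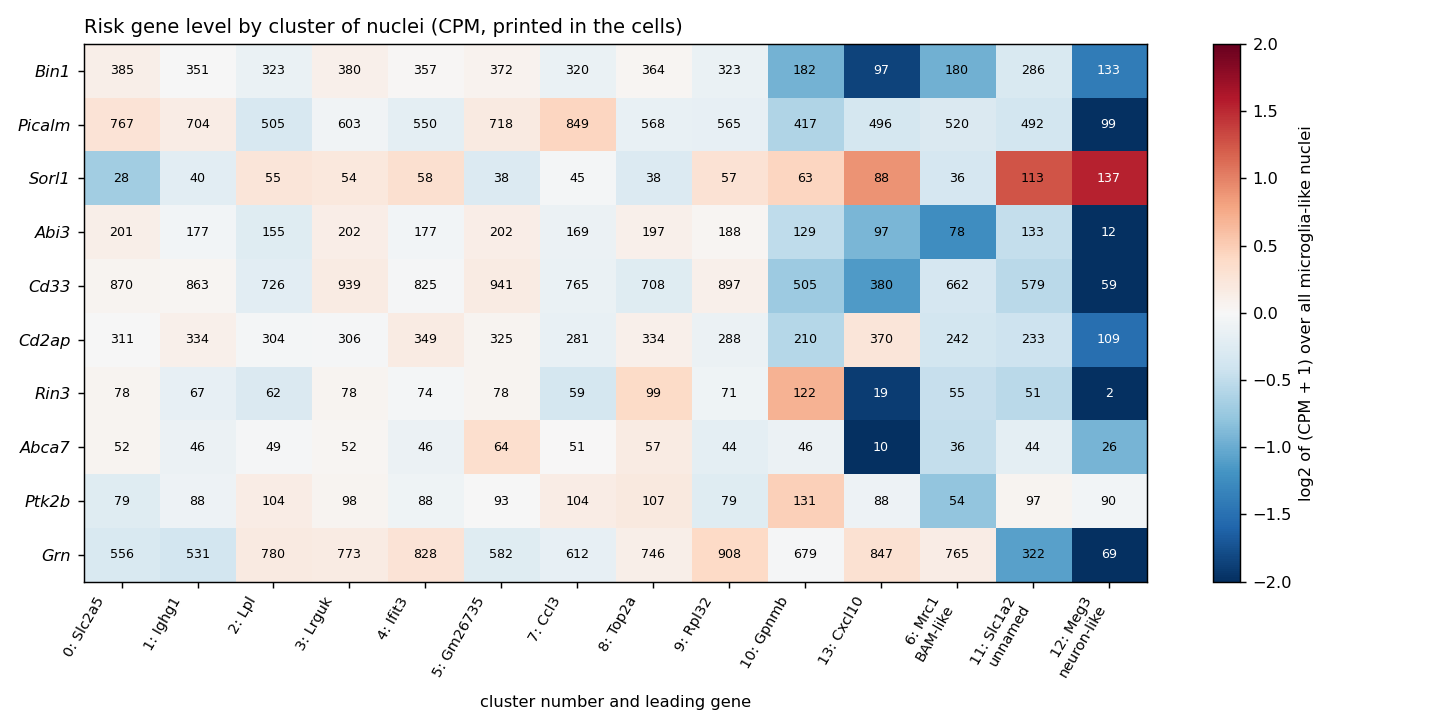
CPM of each risk gene (rows, value in the cell) in the 14 clusters (columns, named by number and leading gene), with the libraries pooled, coloured by the log2 ratio of CPM + 1 to all microglia-like nuclei. Bin1, Cd33, Abi3 and Picalm were low in the Gpnmb-led cluster 10, at 182, 505, 129 and 417 CPM, and Picalm was high in the Ccl3-led cluster 7, at 849 CPM.

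Of a list of 55 further Alzheimer risk genes, 47 were tested between libraries. With tau 11 rose and 6 fell, beside 17.0% of all genes called, at a median log2 fold change of -0.06. The largest rises were those of Apoe (2.15), Treml2 (1.89), the lysosomal protease Ctsb (1.31), Plekha1 (1.26) and the lipid exporter Abca1 (1.16), and the largest falls those of Cass4 (-1.60), Spred2 (-0.76), the alpha-secretase Adam10 (-0.65), Tspan14 (-0.59) and App (-0.57). With APOE4, where 3.67% of all genes were called, 5 rose and none fell: Apoe (6.41), H2-Eb1 (1.89), H2-Ab1 (1.72), Abca1 (0.85) and Ctsb (0.73). TREM2 deletion lowered Trem2 alone among them, by 1.1 on the log2 scale, beside 0.112% of all genes. The calls of Apoe with APOE4 and of Trem2 with its deletion were set by the genotypes compared and show no response of these genes. In the activated split 6 of 40 tested rose and 2 fell, beside 4.91% of all genes, and in the homeostatic split 8 of 40 rose and 3 fell, beside 10.4%. With tau, the called rises of these further genes ran from 0.44 to 2.15 and the called falls from -0.45 to -1.60. Sorl1 (0.86) and Grn (0.63) lay within the range of the rises and Picalm (-0.51) within that of the falls.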

How the data were processed

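The 10 genes and all gene lists were chosen with earlier results of these data known. Per the file headers, the authors deposited raw UMI counts per nucleus from Cell Ranger 3.0.1, aligned to mm10 per the submitters' processing notes. Whether intronic reads and strand were used is not given in the sources used here. The authors' deposited tables held log fold changes, taken here as a score, and p-values over nuclei. Per the labels' protocol, doublets were gated out at the sort, and no doublet caller was run here. Counts were scaled to 10000 per nucleus, and 2000 variable genes, 30 principal components, 15 neighbours and Leiden clustering at resolution 1 (scanpy 1.11.5, leidenalg 0.10.2) gave clusters. Microglia-like clusters needed 12 of 23 markers. UMIs were summed per library, or per library and state, and tested in edgeR 4.0.16 (R 4.3.3) with TMM factors, filterByExpr and the quasi-likelihood test. The additive fit had 2 residual degrees of freedom. Scripts were tested on simulated data. A genotype had 1 library, so no test was made between single libraries, and p-values measure the spread left by the additive model. Gene positions are from GENCODE vM21 (GRCm38). All 10 genes were named by rule, and of the other risk genes up to 5 per contrast and direction by size. The DAM list lost Clec7a, which is not analysed here. The comparisons within clusters, the same cluster mix, the fits on P301S libraries alone and those without clusters 9 and 10 were chosen after seeing the data. Alternatives were DESeq2 1.42.0, normalization, filters, nuclei used, state thresholds, the library block and leaving out each library.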

Additional observations from a re-analysis of the deposited data

Results flagged for a closer look

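For 5 genes the TREM2- library lay above its TREM2+ partner in one background and below it in another, each counting interval leaving out 0. With 1 library per genotype these differences between backgrounds were not tested. Bin1 had a log2 ratio of TREM2- over TREM2+ of 0.16 in P301S/E4 and -0.36 in E4. Abi3 had 0.43 in P301S/E4 and -0.19 in E4. Among microglia-like nuclei alone the Abi3 ratio in E4 was -0.14 (-0.30 to 0.02), an interval that reaches 0. Ptk2b had 0.24 in P301S/E4 and -0.40 in E4. Cd33 had 0.38 in P301S/E4, -0.37 in E4 and -0.15 in P301S/EKO. Picalm had -0.10 in P301S/E4 and 0.25 in P301S/EKO.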

How the results depend on the processing

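Leaving out each library gave 0 to 4 of the 10 genes and 1083 to 2788 genes called for tau, 0 to 1 and 282 to 1300 for APOE4, 0 and 11 to 114 for TREM2 deletion, 0 to 3 and 163 to 542 for the activated split, and 1 to 4 and 545 to 997 for the homeostatic split. Genes called in all moved as follows. By the DESeq2 Wald test they were 1347 for tau, 297 for APOE4, 136 for the activated and 295 for the homeostatic split. With no expression filter they were 1258 for APOE4 and 226 for TREM2 deletion, which had 26 in microglia-like nuclei. In the activated split they were 257 by tertiles of the list, 206 with at least 5 UMIs, 205 from thinned sums and 207 without the ribosomal and Gpnmb clusters. In the homeostatic split they were 539 from thinned sums and 1542 over all passing nuclei. With no replicate block, the library being the block that pairs both sides of a split, 28 genes and 0 of the 10 were called in the activated split, and 2 genes and 0 of the 10 in the homeostatic split. Between libraries the background term of the fit pairs each TREM2- library with its TREM2+ partner.

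Of the 10 genes, 1 was called with no expression filter for APOE4 (Grn, 0.50) and 1 for TREM2 deletion (Cd2ap, -0.40). In the activated split 1 was called with DESeq2 size factors (Cd33, -0.22). By tertiles of the list 1 was called, Grn, at 0.15, and with at least 2 UMIs 1, again Grn, at 0.16, while Abi3, Cd2ap and Cd33 were called in neither. There were 0 by the DESeq2 Wald test, 0 with at least 5 UMIs, 0 from thinned sums, 0 over all passing nuclei and 0 without the ribosomal and Gpnmb clusters. In the homeostatic split 1 was called by the DESeq2 Wald test and 1 from thinned sums, Grn in both. For each of these the cause was not tested.

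Signs changed only for genes that the main fit of that comparison did not call. Some of these genes were called under another setting, as Grn was in the activated split by tertiles of the list. For tau, Rin3 was -0.0054 by the DESeq2 Wald test and -0.073 in microglia-like nuclei, and Abca7 0.093 in nuclei with at least 500 genes. For TREM2 deletion, Bin1 was 0.0067, Sorl1 0.025 and Cd33 0.047 in nuclei with at least 500 genes, and Cd33 0.0055 in microglia-like nuclei. In the activated split, Sorl1 was 0.26 with no replicate block and 0.031 with at least 2 UMIs, Rin3 0.081 with at least 5 UMIs and 0.014 over all passing nuclei, Abca7 0.0023 by the DESeq2 Wald test, 0.0098 with at least 2 UMIs and 0.12 with at least 5, and Grn -0.048 with at least 5. In the homeostatic split, Sorl1 was -0.027 from thinned sums, -0.25 over all passing nuclei and -0.081 in P301S libraries alone, Cd2ap 0.038 over all passing nuclei, and Abca7 -0.014 from thinned sums. Rin3 was 0.015 by the DESeq2 Wald test, 0.011 with no replicate block, 0.0083 by a split at the median of the list, 0.19 over all passing nuclei and 0.069 without the ribosomal and Gpnmb clusters.

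Leaving out 1 library turned the sign within these ranges. For tau they were -0.33 to 0.069 (Bin1), -0.40 to 0.14 (Abi3), -0.38 to 0.18 (Cd33) and -0.33 to 0.34 (Rin3). For APOE4 they were -0.025 to 0.21 (Bin1), -0.13 to 0.40 (Abi3), -0.37 to 0.18 (Cd33), -0.16 to 0.51 (Rin3), -0.087 to 0.17 (Abca7) and -0.080 to 0.36 (Ptk2b). For TREM2 deletion they were -0.12 to 0.10 (Bin1), -0.044 to 0.18 (Picalm), -0.13 to 0.15 (Abi3), -0.21 to 0.13 (Cd33), -0.24 to 0.052 (Ptk2b) and -0.00023 to 0.25 (Grn). In the activated split they were -0.12 to 0.033 (Sorl1), -0.26 to 0.13 (Abca7) and -0.018 to 0.14 (Ptk2b), and in the homeostatic split -0.12 to 0.25 (Sorl1) and -0.066 to 0.061 (Rin3).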

Other observations

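Among 5069 genes with at least 1000 UMIs, the gene whose levels over the 6 libraries lay nearest to those of Sorl1 was Ly6e, at a root mean square distance of 0.035 on the centred log2 scale, against a median distance of 0.37. For Picalm it was Zfp706, at 0.053 against 0.29, and for Grn it was Cpeb4, at 0.041 against 0.32. Genes this near to a pattern over 6 points can be found by their number alone, and no test was made.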
